A study of Mus musculus with 8 samples.

Results

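The TGF-beta, BMP and activin genes of N134 cells were taken from a table of 23309 genes by their symbols: the Gdf, Bmp, inhibin, Tgfb, nodal and Lefty ligand families, their receptors, the Smad genes, secreted antagonists such as Fst, Fstl3, Nog, Chrd and Grem1, and Id1 to Id4, with Gdf15 left out. This gave 61 genes. N134 is a mouse cell line of C57BL/6 background that the labels describe as coming from a pancreatic beta cell tumor. RNA sequencing was done on 4 libraries of N134 cells carrying GFP-miR-431 (libraries 5 to 8, miR-431), which overexpress microRNA-431 with the fluorescent marker GFP, and on 4 libraries of N134 cells carrying GFP-miR-LacZ (libraries 1 to 4, miR-LacZ), the control construct in the same format. All 8 libraries thus carry a GFP-miR construct, and no label tells if the cells are clones or pools, or if each library is its own culture. The p-values therefore reflect the spread of these libraries alone, and that spread may be technical. Mir431, the overexpressed gene, was listed at 0 FPKM in each miR-LacZ library and at 18114, 32890, 37768 and 27269 FPKM in the miR-431 libraries 5 to 8.

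Ligands of this superfamily are secreted dimers. A type II receptor kinase that binds the ligand phosphorylates a type I receptor, and the type I receptor phosphorylates receptor Smads, which enter the nucleus with Smad4. TGF-beta, activin and nodal signal mainly through Smad2 and Smad3, and BMPs through Smad1, Smad5 and Smad9. Smad6 and Smad7 are inhibitory Smads that the pathway itself induces, and Id genes, which encode inhibitors of basic helix-loop-helix transcription factors, are known BMP targets in many cells. In the pancreas, activin and TGF-beta signals are known to act on endocrine development and on beta cell identity.

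The microRNA is shown because the cells differ by it. RefSeq (GRCm38.p6) gives 2 mature forms, from chromosome 12, here with the seed (bases 2 to 8) in capitals, and they have different seeds.
mmu-miR-431-5p: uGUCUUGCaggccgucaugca
mmu-miR-431-3p: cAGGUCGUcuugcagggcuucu
The match to the 5p seed, GCAAGAC, was in the longest annotated 3′ untranslated region (GENCODE M21) of 7 of the 61 pathway genes. Among genes at a testable level it was in 4 of 28 pathway genes and in 7.12% of 10754 genes. The 4 were Inhba, Smad2, Smad4 and Smad5, and of these 4 the match was followed by A, the longest form of seed match, in Smad5. The sites of Inhba and Smad5 are printed with their neighbouring bases, 5′ to 3′, with the match in capitals.
Inhba: ccagactgaacGCAAGACgtgactttgtg
Smad5: tatgtcatataGCAAGACaatgtagagtg
None of these 4 genes passed the test downward. Inhba rose, as given further on, and the log2 fold changes of Smad2, Smad4 and Smad5 were −0.02, 0.16 and 0.20 (limma adjusted p = 0.917, 0.345 and 0.171). Bmp5 and Tgfbr2 also held the match and were below the level tested. The 3p match, ACGACCT, was in Tgfbr2 alone of the 61 genes.

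Levels are FPKM, which scale fragments to transcript length and library size, so that genes can be compared by level. The sources used here give no read counts, so depth is unknown. If the commonest step among low values is 1 fragment, then 1 fragment in a transcript of 3 kb equals 0.00861 to 0.0110 FPKM. The 8 beta cell markers examined were all at a testable level, with Ins2 at 10500 to 26800 FPKM. Their levels were not all equal between groups. Ins1 fell from a mean of 3330 FPKM in miR-LacZ to 388.7 FPKM in miR-431 cells (log2 fold change −3.07, limma adjusted p = 0.000148). Pdx1 and Nkx6-1 fell too (both −0.52, limma adjusted p = 0.0227 and 0.00537). Ins2, Iapp, Slc2a2, Chga and Syp did not pass. Summed FPKM of markers of other cell types were low: fibroblast (1 of 7 markers at a testable level, Col3a1 at 0) 0.715 to 1.06 in miR-431 and 1.94 to 3.20 in miR-LacZ, endothelial (1 of 6, Emcn at 0) 1.40 to 2.86 and 0.571 to 0.819, acinar (1 of 6, Amy2b and Prss1 at 0) 0.0968 to 0.367 and 1.1 to 3.04, leukocyte (1 of 6) 0.902 to 1.88 and 0.982 to 1.43, and duct (0 of 5) 0.520 to 0.740 and 0.495 to 0.638. The part of the fibroblast, endothelial and acinar markers in the results on low-level ligands was not tested. Libraries 1 and 5, 1 of each group, stood apart from the other 6 in their low values, so results are also given for the 6 others and as the untested difference of library 5 from library 1.

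Of the 61 genes, 28 reached 1 FPKM in at least 4 of the 8 libraries and were tested, 2 were at 0 in every library (Bmp10 and Bmp15), and 29 stayed below 0.5 FPKM in every library. Of the 28 tested, Tgfb1, Inhba and Id1 rose, Gdf10, Tgfbr1 and Tgfbr3 fell, and 22 did not pass. That is 21.4% called at a limma adjusted p below 0.05, beside 29.3% of the 11807 genes tested. By direction, 3 of 28 rose, beside 15.4% of all genes, and 3 fell, beside 13.8%. In 5 of 28 the groups did not overlap, beside 31.1% of all tested genes. The median log2 fold change was −0.01 for the tested pathway genes and −0.01 for all tested genes, and the median absolute change was 0.23 and 0.22. Each fold change is a difference of log2(FPKM + 1) values, so that of a low gene is understated. Inhba and Tgfb1 passed the level filter only through miR-431 libraries, and Gdf10, Tgfb2 and Tgfbr3 only through miR-LacZ libraries. Each was below 1 FPKM in all libraries of the other group, so its groups could not overlap once it was tested. Neither that separation nor their p-values are independent of the filter. These 5 genes are 17.9% of the tested pathway genes, beside 1.81% of all tested genes. They are also the 5 genes whose groups did not overlap, and 4 of them are among the 6 called genes, so the shares called and not overlapping rest largely on them.

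**Figure D1:**
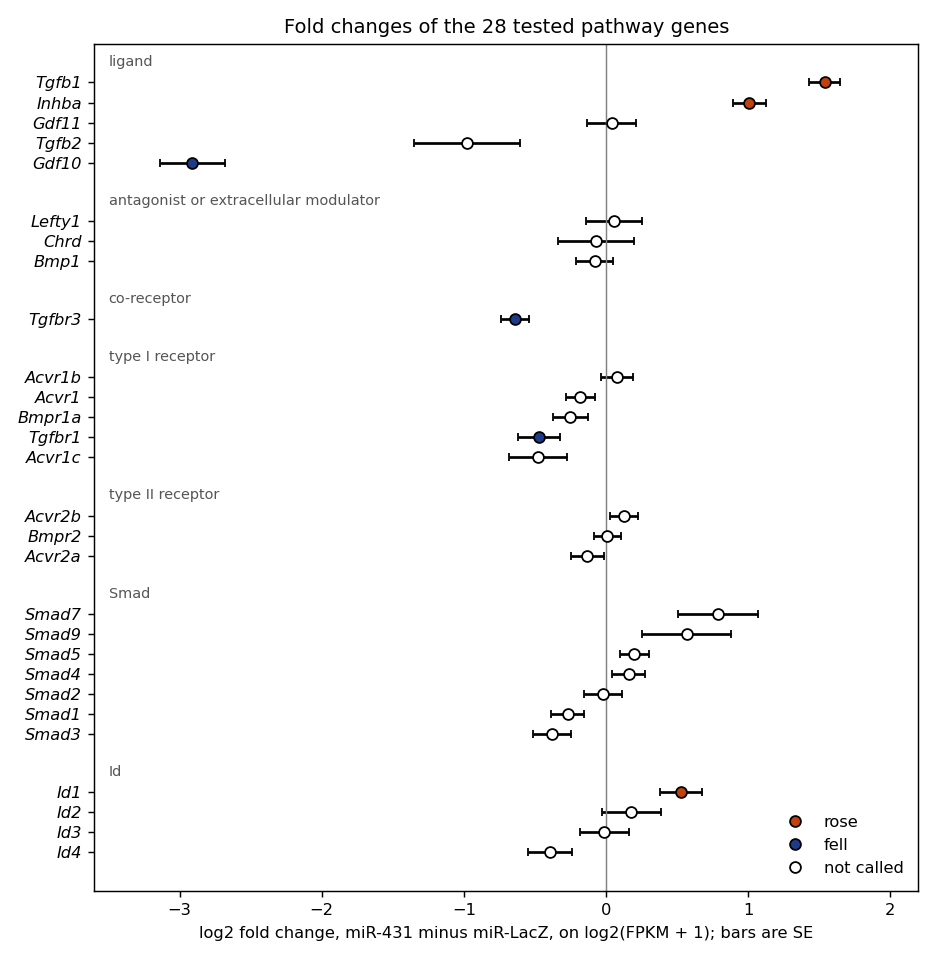
Log2 fold change (miR-431 minus miR-LacZ, on log2(FPKM + 1)) of the 28 tested pathway genes by role; points are estimates from 4 against 4 libraries, bars are SE, and filled points passed a limma adjusted p of 0.05. Tgfb1 at 1.54 and Gdf10 at −2.91 lie farthest out, and no type II receptor or Smad gene passed in this fit.

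Tgfb1 rose, and the 3 TGF-beta ligand genes stood in opposite order of level in the 2 groups. For Tgfb1 against Tgfb2 the level filter fixed that order. Tgfb1, which encodes the TGF-beta form best known from immune and tumor tissue (chromosome 7, 26472020 to 26490015, mm9), was at 0.125, 0.0885, 0.0695 and 0.0683 FPKM in miR-LacZ libraries 1 to 4 and at 1.73, 2.1, 2.70 and 2.17 FPKM in the miR-431 libraries 5 to 8. Every miR-431 library lay above every control, which the level filter required of a gene below 1 FPKM in all controls. The group means were 0.0877 ± 0.0263 and 2.17 ± 0.403 FPKM (SD, n = 4), a 24.8-fold ratio of means, with a log2 difference of 1.54 (SE 0.110, limma adjusted p = 1.49e-05).

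Tgfb2 (chromosome 1, 188447064 to 188529871), known for its part in development of the heart and other organs, was at 1.61, 1.09, 1.00 and 6.91 FPKM in miR-LacZ and at 0.614, 0.503, 0.379 and 0.694 FPKM in the miR-431 libraries. All 4 miR-431 libraries were below all 4 controls, as the level filter required here. Among the controls, miR-LacZ 4 stood far above the rest. The log2 fold change of −0.98 (SE 0.373) did not pass (limma adjusted p = 0.0724). It passed without miR-LacZ 4, at a smaller size (−0.53, limma adjusted p = 0.0141), and with a pseudocount of 0.1 or 0.01 (−1.65 and −1.79, limma adjusted p = 0.0377 and 0.0341), quantile normalization (−1.08, limma adjusted p = 0.0479) or library weights (−0.57, limma adjusted p = 0.0434). Tgfb3 was below the level tested, at 0.728 ± 0.191 FPKM in miR-LacZ and 0.712 ± 0.113 FPKM in miR-431 cells (SD, n = 4).

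Among these 3 genes, Tgfb2 had the highest FPKM in 4 of 4 miR-LacZ libraries and Tgfb1 the lowest. In 4 of 4 miR-431 libraries the order was the reverse, with Tgfb1 highest and Tgfb2 lowest. The level filter fixed the order of Tgfb1 and Tgfb2 in both groups. Tgfb1 reached 1 FPKM only in miR-431 libraries and Tgfb2 only in miR-LacZ libraries. Their order is thus no independent result, and the shares that follow depend on the filter too. The place of Tgfb3 between them was not fixed by it. Tgfb1 made up 0.856% to 5.41% of their summed FPKM in miR-LacZ and 55.2% to 73.8% in miR-431 libraries, while the sum itself was 1.78 to 7.98 and 3.12 to 3.69 FPKM.

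Inhba encodes the beta A subunit, of which activin A is a dimer (chromosome 13, 16106307 to 16119044, mm9). Its level was 0.151, 0.198, 0.257 and 0.156 FPKM in miR-LacZ and 1.74, 1.02, 1.35 and 1.56 FPKM in miR-431 libraries. The groups did not overlap, as the level filter required here, and the means of 0.191 ± 0.0494 and 1.42 ± 0.309 FPKM (SD, n = 4) differed 7.44-fold. Inhba had a log2 fold change of 1.01 (SE 0.115, limma adjusted p = 0.000225). It lies in a stretch of chromosome 13 where the running median over 31 tested genes, Inhba among them, was 0.40 higher in miR-431 libraries. With that median removed Inhba stood at 0.61 (limma adjusted p = 0.00836).

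Inha, the alpha subunit that turns activin dimers into inhibins, was below the level tested in every library. It stood at 0.0236, 0, 0 and 0 FPKM in miR-LacZ, whereas the miR-431 libraries had 0.449, 0.231, 0.0929 and 0.333 FPKM, without overlap, as were 16.3% of the genes below the level tested that were above 0 in at least 1 library. With no level filter it passed (0.34, limma adjusted p = 0.0171), in a fit that called 21.0% of 18903 genes. The other activin subunit genes, Inhbb, Inhbc and Inhbe, were below 0.1 FPKM in every library.

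Gdf10, also called Bmp3b, encodes a divergent ligand of the family (chromosome 14, 34736772 to 34748468, mm9). It was at 4.07, 8.59, 11.3 and 6.84 FPKM in miR-LacZ and at 0.0323, 0.148, 0.179 and 0.0570 FPKM in the miR-431 libraries. In every miR-431 library it was below the lowest control, as the level filter required here. The miR-431 mean of 0.104 ± 0.0703 FPKM was 1.35% of the miR-LacZ mean of 7.70 ± 3.03 FPKM (SD, n = 4). Gdf10 fell by 2.91 on the log2 scale (SE 0.226, limma adjusted p = 2.35e-05). In the pair of 5 and 1 its difference was −2.30, and in the 6 other libraries −3.11 (limma adjusted p = 0.000107). Its close relative Bmp3 had means of 0.0243 and 0.0286 FPKM in miR-LacZ and miR-431 cells.

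Gdf11, a ligand that signals through activin receptors and the most abundant ligand gene that did not pass, was at 3.98, 3.52, 5.62 and 2.50 FPKM in miR-LacZ and 4.16, 3.70, 4.45 and 3.36 FPKM in miR-431 libraries. The miR-431 values lay within the range of the controls (log2 fold change 0.04, SE 0.173, limma adjusted p = 0.897). All 12 BMP ligand genes (Bmp2, Bmp4 to Bmp7, Bmp8a, Bmp8b, Bmp10, Gdf2 and Gdf5 to Gdf7) were below the level tested, and the highest value of any of them was 0.371 FPKM, for Bmp8a. Nodal, Gdf3, Gdf9 and Bmp3 were also below it.

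The level of Gdf1 cannot be told apart from that of Cers1, a ceramide synthase gene with which it shares its locus in the deposited table. In miR-LacZ 1, Gdf1 was listed at 4.25 and Cers1 at 0.0541 FPKM, whereas in the other 7 libraries Cers1 lay between 2.61 and 4.70 FPKM and Gdf1 at 0.0425 to 0.892 FPKM. The sum of both was 2.66 to 4.30 FPKM in miR-LacZ and 3.02 to 5.59 FPKM in miR-431 libraries.

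The 3 ligand genes that changed differ in the 250 bases before their annotated start, printed here from RefSeq (GRCm38.p6, plus strand) because they carried the largest changes. Capitals mark TATAAA.
Tgfb1, chr7:25686752-25687001: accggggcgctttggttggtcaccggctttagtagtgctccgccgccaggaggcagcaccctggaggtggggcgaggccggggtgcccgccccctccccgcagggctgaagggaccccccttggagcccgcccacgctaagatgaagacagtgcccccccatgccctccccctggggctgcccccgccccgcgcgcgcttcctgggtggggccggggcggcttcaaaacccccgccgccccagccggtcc
Inhba, chr13:16011601-16011850: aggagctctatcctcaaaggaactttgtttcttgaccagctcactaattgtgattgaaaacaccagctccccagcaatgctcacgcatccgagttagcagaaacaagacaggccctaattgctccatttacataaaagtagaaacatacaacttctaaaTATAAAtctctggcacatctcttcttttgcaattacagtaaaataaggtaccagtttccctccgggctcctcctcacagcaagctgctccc
Gdf10, chr14:33923337-33923586: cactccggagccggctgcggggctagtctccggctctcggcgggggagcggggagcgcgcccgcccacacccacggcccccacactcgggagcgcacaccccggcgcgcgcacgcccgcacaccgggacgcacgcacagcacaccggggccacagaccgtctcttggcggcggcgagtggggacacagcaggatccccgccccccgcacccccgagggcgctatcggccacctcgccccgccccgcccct
The G and C content was 75.2% for Tgfb1, 43.2% for Inhba and 78.8% for Gdf10. On both strands, none of these windows held GGCGCC, a GC-rich element that BMP Smads can bind, or TGANTCA, the AP-1 motif, which are in 9.59% and 6.75% of 32851 promoter windows of that length. TATAAA is in 12.4% of them. GGCGCC was held by windows of other pathway genes, namely Bmpr2, Grem1, Smad9, Tgfbr1, Gdf1, Id2, Id4, Smad5, Bmpr1a and Chrd.

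**Figure D2:**
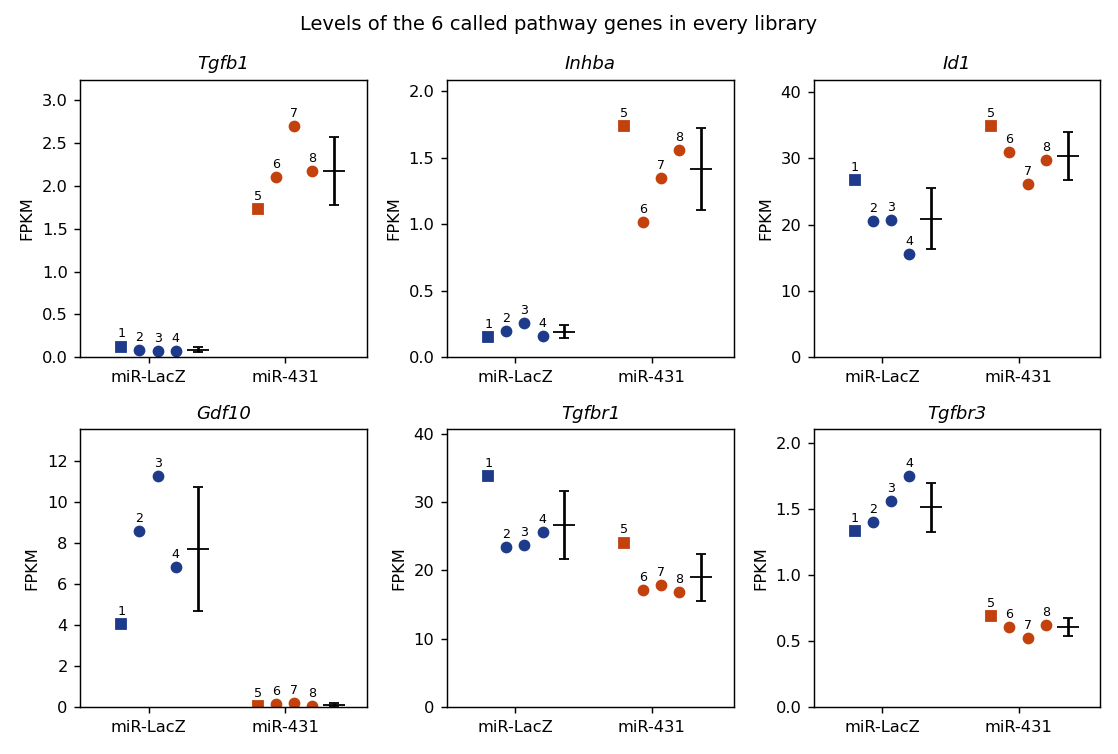
FPKM of Tgfb1, Inhba, Id1, Gdf10, Tgfbr1 and Tgfbr3 in each miR-LacZ library (blue, 1 to 4) and miR-431 library (orange, 5 to 8), with squares for libraries 1 and 5 and black marks for mean ± SD (n = 4). Tgfb1, Inhba, Gdf10 and Tgfbr3 separate the groups, which the level filter required of them, while Id1 and Tgfbr1 overlap.

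No antagonist passed the test. Bmp1, a protease that cleaves Chordin and procollagens rather than a ligand, was the most abundant of all 61 genes, at 133.6, 155.6, 126.8 and 174.2 FPKM in miR-LacZ and 124.9, 154.5, 120.9 and 157.5 FPKM in miR-431 libraries. These values overlapped throughout (log2 fold change −0.08, SE 0.133, limma adjusted p = 0.686). Lefty1, a secreted antagonist of nodal, stood at 10.2 ± 2.98 FPKM in miR-LacZ and 10.6 ± 2.35 FPKM in miR-431 cells (SD, n = 4; limma adjusted p = 0.858). Its partner Lefty2 stayed at or below 0.0466 FPKM in every library.

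Chrd, which encodes the BMP antagonist Chordin, was at 3.07 ± 0.558 FPKM in miR-LacZ and 3.15 ± 1.98 FPKM in miR-431 cells (SD, n = 4; limma adjusted p = 0.869), with miR-431 libraries ranging from 1.49 to 6.02 FPKM. Chrd shares its listed locus with Thpo, as Acvr1c does with Gm13544, so their reads may not be fully separate. Grem1, another BMP antagonist, was below the level tested. It was at 0.281, 0.350, 0.256 and 0.287 FPKM in miR-LacZ and 0.814, 0.743, 0.184 and 0.931 FPKM in miR-431 libraries, so that 3 of 4 miR-431 libraries lay above all controls and miR-431 7 below them. Fst, Fstl3 and Nog were below 0.3 FPKM in every library. With no level filter Lefty2 passed downward, at −0.04 (limma adjusted p = 0.0481), from a mean of 0.0322 to 0.00270 FPKM.

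**Figure D3:**
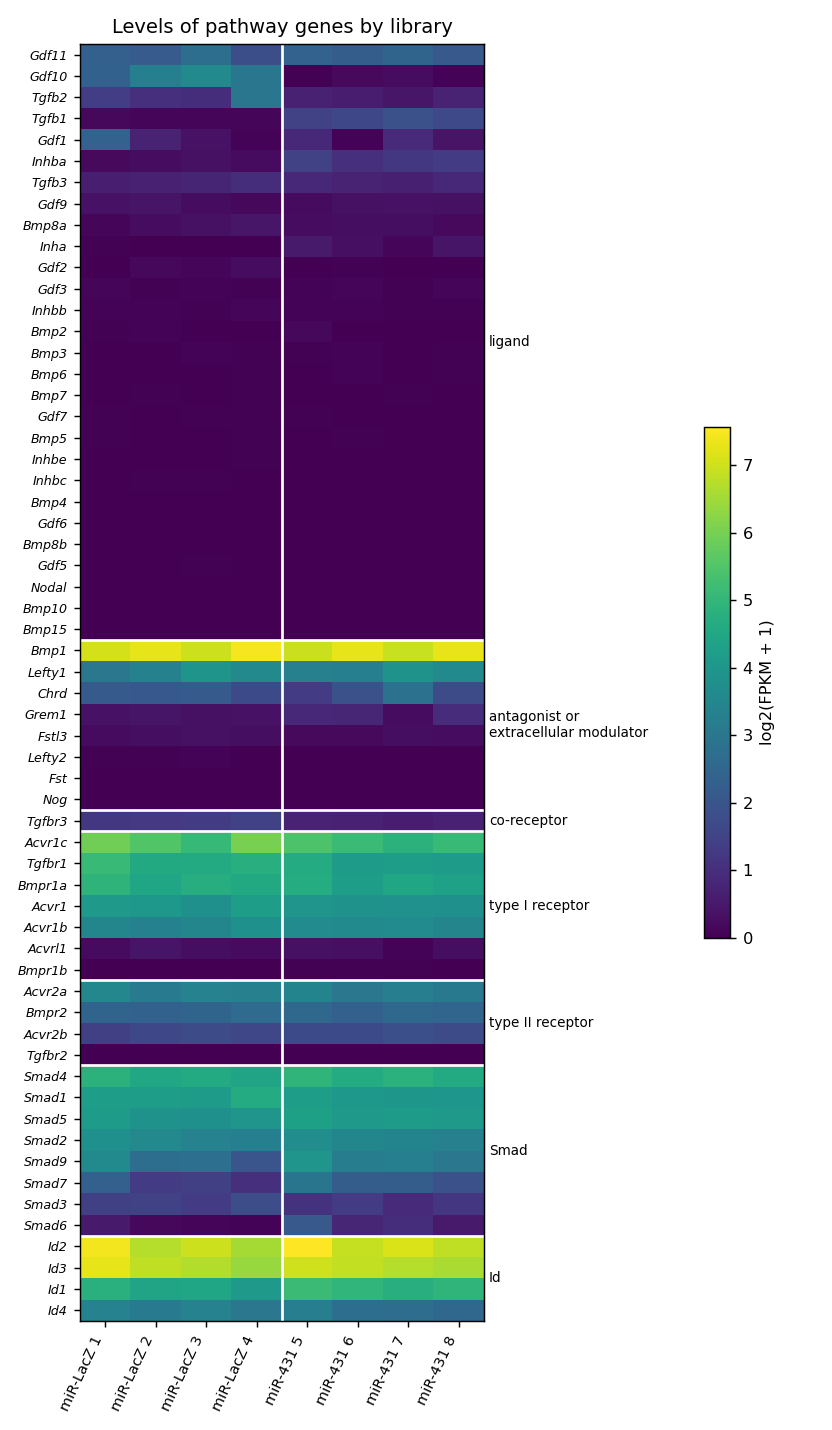
Level, as log2(FPKM + 1), of pathway genes in the 8 libraries, grouped by role and ordered by mean within a role. Most ligand rows are near 0, Bmp1, Id2 and Id3 are the brightest rows, and Tgfbr2 is dark in all libraries.

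The receptors for activin and BMP were present, and the type II receptor for TGF-beta was near 0. Tgfbr2, which TGF-beta needs to bind its type I receptor in most cells, was listed at 0 in 7 of 8 libraries and at 0.00574 FPKM in miR-LacZ 4. The type II receptor genes Acvr2a, Bmpr2 and Acvr2b were at 8.96 ± 1.08, 4.53 ± 0.487 and 2.07 ± 0.282 FPKM in miR-LacZ cells and at 8.12 ± 1.14, 4.57 ± 0.393 and 2.36 ± 0.186 FPKM in miR-431 cells (SD, n = 4). None of these 3 passed (limma adjusted p = 0.430, 0.941 and 0.338). Acvr2a, the most abundant, was at 10.3, 7.66, 9.19 and 8.73 FPKM in miR-LacZ and 9.56, 7.02, 8.50 and 7.42 FPKM in miR-431 libraries. Those ranges overlap, and Acvr2a shares its listed locus with Orc4.

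Tgfbr1, the type I receptor of TGF-beta (chromosome 4, 47366176 to 47427796, mm9), was at 33.9, 23.4, 23.7 and 25.7 FPKM in miR-LacZ and 24.1, 17.1, 17.9 and 16.8 FPKM in miR-431 libraries. Only miR-431 5 reached into the range of the controls. Its mean in miR-431 was 71.0% of the control mean (log2 fold change −0.47, SE 0.145, limma adjusted p = 0.0346). Leaving out both 1 and 5 it was −0.47 (limma adjusted p = 0.00778), and between 5 and 1 it was −0.48. The call ended without miR-LacZ 1, miR-LacZ 4, miR-431 6, miR-431 7 or miR-431 8 (−0.35, −0.48, −0.43, −0.45 and −0.42, limma adjusted p = 0.0673, 0.0542, 0.0925, 0.0744 and 0.0906), with Mir431 taken out of the library sum (−0.43, limma adjusted p = 0.110), with no level filter (−0.47, limma adjusted p = 0.0595) and after the neighbour median was subtracted (−0.32, limma adjusted p = 0.202).

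Acvr1c, the type I receptor also called ALK7, known from fat and islet cells, was the most abundant receptor gene, at 60.0, 44.9, 32.4 and 63.6 FPKM in miR-LacZ and 42.8, 34.6, 28.0 and 34.2 FPKM in miR-431 libraries. The ranges overlapped, and its log2 fold change of −0.48 (SE 0.204) did not pass (limma adjusted p = 0.103), except without miR-LacZ 3 (−0.67, limma adjusted p = 0.0169) and with library weights (−0.40, limma adjusted p = 0.0160), a setting that called 49.5% of all genes. Bmpr1a and Acvr1, which carry BMP signals, were at 24.8 ± 3.39 and 15.6 ± 2.03 FPKM in miR-LacZ and 20.7 ± 2.95 and 13.5 ± 0.692 FPKM in miR-431 cells (SD, n = 4; limma adjusted p = 0.152 and 0.198), and Acvr1 passed with library weights (−0.17, limma adjusted p = 0.0469). Acvr1b, the main activin type I receptor, was at 10.5 ± 1.67 and 11.1 ± 0.841 FPKM (limma adjusted p = 0.631). Acvrl1 and Bmpr1b were below the level tested.

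The co-receptor gene Tgfbr3 encodes betaglycan, which presents TGF-beta to its receptors and inhibin to activin receptors (chromosome 5, 107535588 to 107718614, mm9). Tgfbr3 was at 1.33, 1.40, 1.56 and 1.75 FPKM in miR-LacZ and 0.685, 0.606, 0.520 and 0.618 FPKM in miR-431 libraries. The groups did not overlap, as the level filter required here. The miR-431 mean was 40.3% of the control mean. Tgfbr3 fell by 0.64 on the log2 scale (SE 0.0957, limma adjusted p = 0.00102), and it passed in each of the 8 fits that left out 1 library. Those fits kept the level filter made on all 8 libraries, so they depend on it too.

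None of the 7 tested Smad genes passed in the fit used throughout, and Smad1, Smad3, Smad5, Smad7 and Smad9 passed in some of the alternatives. Smad4, the common partner, was the most abundant, at 28.3, 22.3, 23.8 and 20.2 FPKM in miR-LacZ and 30.1, 24.2, 27.6 and 23.7 FPKM in miR-431 libraries, which overlap. Smad2 and Smad1 were at 10.4 ± 1.84 and 19.4 ± 3.33 FPKM in miR-LacZ and 10.2 ± 1.49 and 15.7 ± 1.42 FPKM in miR-431 cells, and Smad5 at 14.6 ± 1.88 and 16.8 ± 1.49 FPKM (SD, n = 4). With library weights Smad1 and Smad5 passed (−0.23 and 0.19, limma adjusted p = 0.0230 and 0.0422). Smad3 was lower than Smad2 throughout, at 1.72, 1.83, 1.48 and 2.48 FPKM in miR-LacZ and 1.17, 1.49, 0.858 and 1.29 FPKM in miR-431 libraries. The Smad3 groups overlapped by a small margin, at miR-LacZ 3 and miR-431 6. Its log2 fold change of −0.38 (SE 0.133, limma adjusted p = 0.0539) passed without miR-LacZ 3 (−0.45, limma adjusted p = 0.0425), after the neighbour median of 0.28 was subtracted (−0.66, limma adjusted p = 0.00990), and with quantile normalization, no mean-variance trend or library weights (−0.44, −0.38 and −0.27, limma adjusted p = 0.0218, 0.0466 and 0.0310).

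Both inhibitory Smad genes had higher mean levels in miR-431 cells. Smad7 missed the threshold in the fit used throughout and passed in several alternatives, and Smad6 was too low to enter that fit. Smad7 (chromosome 18, 75527018 to 75555588, mm9) was at 3.97, 1.53, 1.72 and 1.06 FPKM in miR-LacZ and 6.64, 3.70, 3.70 and 2.69 FPKM in miR-431 libraries. Library 1 alone brought the groups to overlap. With all 8 libraries Smad7 differed by 0.79 (SE 0.281, limma adjusted p = 0.0599), in the 6 others 0.84 (limma adjusted p = 0.00956, where 24.3% of all genes were called), and in the pair of 5 and 1 it was 0.62. Without miR-LacZ 1 it was 1.04 (limma adjusted p = 0.00921) and without miR-431 8 it was 0.93 (limma adjusted p = 0.0495). With library weights it was 0.75 (limma adjusted p = 0.00686).

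Smad6 (chromosome 9, 63800882 to 63869866, mm9), the inhibitory Smad that acts mainly on BMP signals, was below the level tested, at 0.474, 0.112, 0.0950 and 0.0561 FPKM in miR-LacZ and 3.33, 0.758, 0.990 and 0.475 FPKM in miR-431 libraries. The lowest miR-431 library stood just above the highest control. With no level filter its log2 fold change of 0.89 did not pass (limma adjusted p = 0.0803). Smad9, a BMP-type receptor Smad, was at 11.4, 5.64, 5.77 and 2.98 FPKM in miR-LacZ and 14.5, 8.05, 8.58 and 6.95 FPKM in miR-431 libraries. As with Smad7, library 1 lay within the miR-431 range while the other 3 controls lay below it. Its log2 fold change with all 8 libraries was 0.57 (SE 0.313, limma adjusted p = 0.200) and 0.65 in the 6 others (limma adjusted p = 0.0601). It was 0.85 without miR-LacZ 1 (limma adjusted p = 0.0340).

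**Figure D4:**
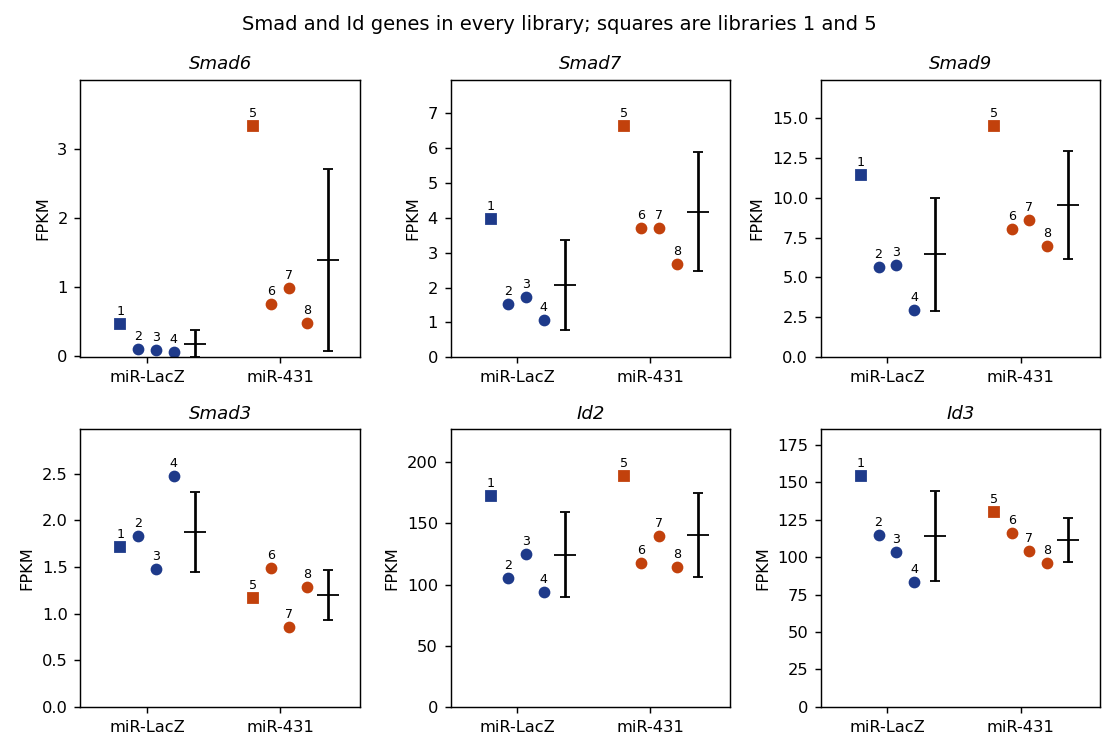
FPKM of Smad6, Smad7, Smad9, Smad3, Id2 and Id3 in each miR-LacZ library (blue, 1 to 4) and miR-431 library (orange, 5 to 8), with squares for libraries 1 and 5 and black marks for mean ± SD (n = 4). For the genes other than Smad3, library 1 is the highest control and library 5 the highest miR-431 library.

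Id1 rose, and the other Id genes did not pass. Id1 (chromosome 2, 152562009 to 152563146, mm9) was at 26.8, 20.6, 20.7 and 15.6 FPKM in miR-LacZ and 34.9, 30.9, 26.1 and 29.7 FPKM in miR-431 libraries. Only miR-LacZ 1 overlapped with the miR-431 range. It rose by 0.53 on the log2 scale (SE 0.149, limma adjusted p = 0.0230), 0.59 with both 1 and 5 left out (limma adjusted p = 0.0172) and 0.37 between 5 and 1. The call ended without miR-LacZ 2, miR-431 5 or miR-431 6 (0.54, 0.47 and 0.52, limma adjusted p = 0.0528, 0.0587 and 0.0573).

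Id2 and Id3 were the most abundant Id genes. Id2 was at 172, 106, 125 and 93.5 FPKM in miR-LacZ and 189, 118, 140 and 114 FPKM in miR-431 libraries (log2 fold change 0.18, SE 0.208, limma adjusted p = 0.540), and Id3 at 154, 115, 103 and 83.7 FPKM and 130, 116, 104 and 96.1 FPKM (−0.01, SE 0.174, limma adjusted p = 0.984). For both, the spread within each group was larger than the difference between groups. Id4 was at 9.34, 7.43, 9.14 and 6.99 FPKM in miR-LacZ and 8.46, 5.63, 5.57 and 4.77 FPKM in miR-431 libraries. Its log2 fold change of −0.39 (SE 0.155, limma adjusted p = 0.0825) passed without miR-431 5 (−0.54, limma adjusted p = 0.0125), with both 1 and 5 left out (−0.48, limma adjusted p = 0.0266), with the neighbour median of 0.34 removed (−0.73, limma adjusted p = 0.00529) and with library weights (−0.42, limma adjusted p = 0.00826).

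Libraries 1 and 5 were often the highest of their groups, a description made after the values were seen. In 12 of the 28 tested pathway genes (42.9%), library 1 was the highest control and library 5 the highest miR-431 library, beside 16.5% of all tested genes. The 12 were Acvr2a, Bmpr1a, Tgfbr1, Smad2, Smad4, Smad5, Smad7, Smad9 and Id1 to Id4. Gdf10 was the 1 gene for which both libraries were the lowest (3.57%, beside 18.1% of all tested genes). With a term for libraries 1 and 5 in the fit, 11 pathway genes passed, 6 upward and 5 downward, beside 36.4% of all tested genes. These were the 6 called genes and Smad7, Smad9 and Smad5 upward (0.79, 0.57 and 0.20, limma adjusted p = 0.00234, 0.0360 and 0.0409) and Id4 and Bmpr1a downward (−0.39 and −0.25, limma adjusted p = 0.0230 and 0.0358). Since this is bulk RNA, fewer cells with a transcript and less of it per cell cannot be told apart.

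Genes of the wider pathway outside the symbol families numbered 79, of which 78 are in the table used here and 44 were tested. Of these, 9 rose, 4 fell and 31 did not pass, with a median log2 fold change of 0.12. That is 29.5% called, close to the 29.3% of all tested genes. Of all tested genes, 15.4% rose and 13.8% fell, and these shares stand beside each count by group given below. Of the 4 tested genes of ligand storage and activation, 2 rose and 0 fell. Ltbp4, a protein that holds latent TGF-beta in the matrix, went from 0.867, 0.820, 0.726 and 0.640 FPKM in miR-LacZ to 2.30, 2.46, 1.57 and 2.52 FPKM in miR-431 libraries, with no overlap (log2 fold change 0.86, limma adjusted p = 0.000700). Being below 1 FPKM in all controls, it could be tested only with groups that do not overlap. Itgav, the alpha V integrin whose heterodimers can activate latent TGF-beta, rose from 16.6 ± 2.53 to 25.3 ± 2.37 FPKM (SD, n = 4; 0.59, limma adjusted p = 0.00480). The beta subunit genes in the same list were below the level tested. Itgb8 was lower in every miR-431 library, with means of 1.16 FPKM in miR-LacZ and 0.625 FPKM in miR-431 cells. Thbs1 and Ltbp2 of that list, also below the level tested, were higher in every miR-431 library. Their means were 0.311 and 0.123 FPKM in miR-LacZ and 1.79 and 0.302 FPKM in miR-431 cells. Of all genes below that level and above 0 in at least 1 library, 16.3% did not overlap. Itgb6 was at most 0.00575 FPKM in any library. Activation of TGF-beta was not tested.

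Of 7 tested co-receptors and extracellular modulators, 1 rose and 1 fell. Tmeff1 and Tmeff2, transmembrane proteins with follistatin-like domains, moved apart, Tmeff1 from 7.94 ± 2.24 to 13.1 ± 2.67 FPKM (0.67, limma adjusted p = 0.0253) and Tmeff2 from 5.43 ± 0.869 to 3.38 ± 1.04 FPKM (SD, n = 4; −0.58, limma adjusted p = 0.0320). The call of Tmeff1 ended without miR-LacZ 2, miR-431 5 or miR-431 7 (limma adjusted p = 0.0588, 0.0554 and 0.0639) and with no level filter (limma adjusted p = 0.0532), and that of Tmeff2 without miR-LacZ 1, 3 or 4 or miR-431 6 or 8 (limma adjusted p = 0.0671, 0.0683, 0.0666, 0.0888 and 0.0814). The call of Tmeff2 also ended with the neighbour median removed, with Mir431 out of the library sum and with no level filter (−0.45, −0.54 and −0.58, limma adjusted p = 0.0507, 0.0645 and 0.0673).

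Of 22 tested intracellular regulators, 3 rose and 3 fell. Smurf1, a ubiquitin ligase for BMP Smads and receptors, was at 6.79, 6.86, 5.31 and 8.07 FPKM in miR-LacZ and 3.93, 4.61, 4.09 and 4.22 FPKM in miR-431 libraries, without overlap (log2 fold change −0.56, limma adjusted p = 0.00547, and −0.36 and 0.0403 with the neighbour median removed). Nedd4l, a ubiquitin ligase of activated Smad2 and Smad3, rose from 9.11 ± 0.420 to 14.3 ± 0.655 FPKM (0.60, limma adjusted p = 0.000397), and Tab1, a partner of the TGF-beta activated kinase, from 9.42 ± 1.39 to 15.7 ± 1.92 FPKM (SD, n = 4; 0.68, limma adjusted p = 0.00245, and 0.35 and 0.0300 with the neighbour median removed). Zfyve9, an anchor for Smad2 and Smad3 at endosomes, rose by 0.51 (limma adjusted p = 0.0314), a call that held in 2 of the 8 fits with 1 library fewer (without miR-LacZ 1 or miR-431 8) and ended in the rest (limma adjusted p from 0.0509 to 0.0804) and with no level filter (limma adjusted p = 0.0623). Strap and Pmepa1, named after their values were seen, fell by 0.43 and 0.39 (limma adjusted p = 0.0146 and 0.0185). The call of Strap ended with Mir431 out of the library sum (−0.39, limma adjusted p = 0.0542). Pmepa1, a target and inhibitor of TGF-beta signals, stood at −0.17 with the neighbour median removed (limma adjusted p = 0.322), at −0.35 with both 1 and 5 left out (limma adjusted p = 0.0683) and at −0.32 without miR-431 8 (limma adjusted p = 0.0546).

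Of 14 tested genes known as targets of the pathway in other cells, 3 rose and 1, Pmepa1, fell. Tsc22d1 was at 87.2, 73.3, 82.7 and 73.1 FPKM in miR-LacZ and 146, 110, 116 and 114 FPKM in miR-431 libraries, with no overlap (0.61, limma adjusted p = 0.00307), and Cdkn1a, a cell cycle inhibitor that p53 also induces, had a log2 fold change of 0.69 (limma adjusted p = 0.00160). Bhlhe40 rose by 0.60 (limma adjusted p = 0.0339), a call that ended without miR-431 5, 6 or 7 (limma adjusted p = 0.0768, 0.0902 and 0.0704), with both 1 and 5 left out (limma adjusted p = 0.0783), with the neighbour median removed (limma adjusted p = 0.0546) and with no level filter (limma adjusted p = 0.0675). Skil, Klf10, Junb, Tgfbi, Cdkn2b, Bambi, Hes1, Hey1, Msx1 and Atoh8 did not pass. Ctgf, a TGF-beta target in many cells, was below the level tested, with a mean of at most 0.0122 FPKM.

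**Figure D5:**
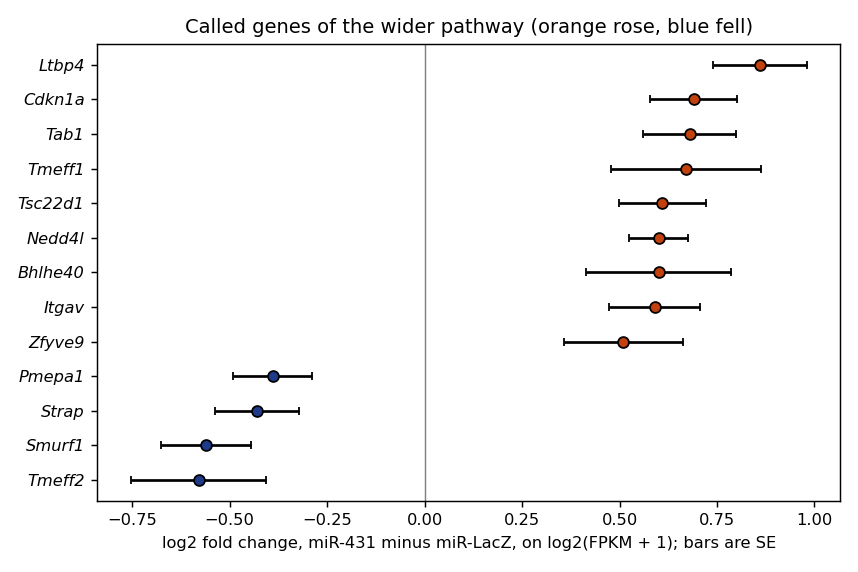
Log2 fold change (miR-431 minus miR-LacZ, on log2(FPKM + 1)) of the 13 called genes of the wider pathway; points are estimates from 4 against 4 libraries and bars are SE. Ltbp4 is highest at 0.86 and Tmeff2 lowest at −0.58.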

How the data were processed

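RNA sequencing of 8 N134 libraries was used, 4 per group. The authors deposited 1 table of FPKM values for 23309 genes with coordinates in mm9. Tools listed in the submitters' processing notes, without role or order, are TopHat2 2.0.11, Cufflinks 2.1.1, cutadapt and CASAVA 1.8.2. Whether strand was used is not given in the sources used here. The 11807 genes that reached 1 FPKM in 4 or more libraries entered a limma fit (version 3.58.1, R 4.3.3) on log2(FPKM + 1) with a mean-variance trend, Benjamini-Hochberg adjustment over all of them and no covariate. The members, gene lists and alternatives were chosen with earlier results of these data known. The rule for naming was every member tested, with values in every library for called members and for the most abundant uncalled member of each role, and called genes of the wider lists with an absolute log2 fold change of at least 0.5. Smad3, Smad6, Smad7, Smad9, Tgfb2, Inha, Grem1, Id3 and Id4 were given in every library after their values were seen. The fit was tested on simulated data with 200 changed genes. Alternatives changed the pseudocount, filter, scaling, trend and weights, left out libraries, or removed the neighbour median. The neighbour median is the running median, in each library, over 31 tested genes along the chromosome, the gene itself among them. Seed matches used GENCODE M21 sequences, not its coordinates. RefSeq promoter windows were found for 41 of the 61 members. Figures were drawn with matplotlib 3.10.9, and tables made with numpy 2.4.6 and pandas 2.3.3, in Python 3.11.15. Some items are not reported here.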

Additional observations from a re-analysis of the deposited data

Results flagged for a closer look

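In 4 of 56 groups of 4 libraries, over the 28 tested pathway genes, 1 library stood apart from the other 3 by more than Dixon's 95% critical value, and chance flags about 1 in 20 groups. In 3 of these the library was miR-LacZ 4. Tgfb2 was at 6.91 FPKM there and at 1.00 to 1.61 FPKM in the other controls. Smad1 was at 24.3 FPKM there, beside 17.3 to 18 FPKM, and Chrd at 2.24 FPKM, beside 3.28 to 3.39 FPKM. Tgfbr1 was at 24.1 FPKM in miR-431 5 and at 16.8 to 17.9 FPKM in the other miR-431 libraries.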

How the results depend on the processing

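Of all genes tested, 3454 were called, 5845 with library weights and 2289 with the neighbour median removed. With Mir431 taken out of the library sum 3081 were called. Of the members, 6 were called, 14 with library weights (5 up, 9 down, beside 49.5% of all genes), 11 with a term for libraries 1 and 5, and 2 of 17 tested at a filter of 5 FPKM. The last filter called 2547 of 9367 genes overall in the table. Id1 and Tgfbr1 stayed called there, while Tgfb1, Inhba, Gdf10 and Tgfbr3 were too low to be tested. Library weights called 21 genes of the wider pathway in place of 13. With 1 library fewer, calls ranged from 2480 to 3350 for all genes, 4 to 8 for members and 10 to 14 for the wider pathway. The 6 called members were also called with either smaller pseudocount, quantile normalization, median ratio scaling, no trend, weights, the term and the 6 libraries.

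Reversed signs were all of members that did not pass. With the neighbour median removed these were Acvr2b −0.07, Bmp1 0.10, Chrd 0.13, Gdf11 −0.06, Id3 0.02 and Smad2 0.06. In the 6 libraries they were Bmpr2 −0.03, Chrd 0.18, Id3 0.08 and Lefty1 −0.02, with quantile normalization Bmpr2 −0.03, Gdf11 −0.01 and Id3 0.01, and without Mir431 in the sum Id3 0.03 and Smad2 0.01. With 1 library fewer, Bmp1 ranged from −0.15 to 0.00, Bmpr2 from −0.03 to 0.07, Chrd from −0.36 to 0.14, Gdf11 from −0.11 to 0.19, Id3 from −0.14 to 0.15, Lefty1 from −0.09 to 0.21 and Smad2 from −0.11 to 0.07. The cause was not tested. No paired analysis was possible because the groups share no replicate numbers. Depth limits the genes below the level tested, where a value can rest on a few fragments.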
